A study of Homo sapiens with 9 samples.

Results

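The YAP, TEAD and target transcripts described here are 10 genes in 3 roles. YAP1 and WWTR1 (which encodes TAZ) are the paired coactivators, TEAD1 to TEAD4 are the DNA-binding partners, and CCN1, CCN2, ANKRD1 and AMOTL2 are widely used target genes. They were chosen by symbol, and all 10 were found among the 60708 gene rows of the count table. All 10 were also among the 20812 genes with enough counts to be tested.

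The samples were MDA-MB-231 cells, an established human line of triple-negative breast cancer, in 3 groups of 3 libraries. The control cells received DMSO, the solvent. The PdB cells received 10 nM pladienolide B, a small molecule that binds the SF3B1 subunit of the U2 snRNP and inhibits pre-mRNA splicing, for 16 h. The recovery cells were collected 24 h after that treatment. The labels do not say how the drug was removed, at which time the DMSO cells were collected, or whether the replicates were separate cultures, so that p-values measure only the spread between these libraries. One cell line was used, and the DMSO libraries are the control for both other groups.

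YAP and TAZ have no DNA-binding domain of their own. In the nucleus they bind TEAD proteins, which recognise the sequence GGAATG and its neighbours, and switch on genes of cell adhesion, matrix and growth. The Hippo kinases MST1 and MST2 and then LATS1 and LATS2 phosphorylate YAP and TAZ, which keeps them in the cytoplasm or sends them to degradation. That control acts on the proteins, which RNA counts do not measure. Counts per gene also do not separate fully spliced transcripts from those that keep introns or skip exons. CCN1, CCN2, AMOTL2 and LATS2 are also targets whose products feed back on matrix signalling or on the pathway itself.

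Start-site sequences are shown because the targets moved in different directions, and the start windows of CCN2, ANKRD1 and AMOTL2 carry the TEAD recognition letters in different numbers. Windows from 250 bases before to 50 bases after the annotated start (RefSeq, GRCh38.p14) were found for 7 of the 10 genes, with 10 windows between them. Entries for CCN1, TEAD1 and TEAD4 were not matched. Both strands were searched for GGAATG and for the AP-1 letters TGANTCA, which do not overlap each other in these windows. Capitals mark GGAATG in the upstream run of CCN2 (chr6:131951383-131951622, minus strand, ending 11 bases before the start).

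CCN2 upstream: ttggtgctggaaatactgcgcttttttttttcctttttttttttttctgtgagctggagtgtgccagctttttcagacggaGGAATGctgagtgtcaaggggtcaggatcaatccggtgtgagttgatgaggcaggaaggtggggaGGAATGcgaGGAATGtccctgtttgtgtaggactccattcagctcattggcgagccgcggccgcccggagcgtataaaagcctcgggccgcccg

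The sites of the other genes are given with 30 bases, read on the strand that shows the motif, with the motif in capitals. The YAP1 site lay at chr11:102110273-102110302 on the plus strand, the ANKRD1 sites at chr10:90921290-90921319 and chr10:90921198-90921227 on the minus strand, and the AMOTL2 site at chr3:134374499-134374528 on the plus strand, opposite to the gene. The AP-1 match of ANKRD1 lay between its TEAD letters, at chr10:90921264-90921293 on the minus strand. The 30-base stretches of this match, the second ANKRD1 site and the AMOTL2 site overlap annotated exons of their own genes in GENCODE 29. Gene starts there can lie upstream of the RefSeq start. The stretches of the other sites do not overlap such exons. Overlap was taken for the whole stretch and not for the motif alone. ANKRD1 starts at chr10:90921276 in GENCODE 29, inside the stretch of the AP-1 match.

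YAP1, GGAATG: cgggagtgtgcaGGAATGtagcaacttgca
ANKRD1, first GGAATG: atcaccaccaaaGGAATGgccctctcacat
ANKRD1, second GGAATG: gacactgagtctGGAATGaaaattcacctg
ANKRD1, TGANTCA: acatttcttccTGATTCAcatattcagcag
AMOTL2, GGAATG: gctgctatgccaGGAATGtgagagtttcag

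The CCN2 window held 3 copies, ANKRD1 held 2, and YAP1 and AMOTL2 held 1 each, the last in 1 of 2 AMOTL2 windows. The windows of WWTR1, TEAD2 and TEAD3 held none. Of 35116 RefSeq windows of the same length, 14.0% held at least 1 copy, 1.37% at least 2 and 0.128% at least 3. TGANTCA was in 7.71% of all windows and, among the 7 genes, in ANKRD1 alone. These matches describe the letters in a short window. CCN2, with 3 copies, had higher counts under PdB than in DMSO, ANKRD1, with 2, had lower counts, and AMOTL2, with 1, had the largest rise of the 10.

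Total counts per library ran from 56389689 to 67047079. Libraries of a group correlated at 0.975 to 0.988 (log2 CPM), and libraries of different groups at 0.900 to 0.945. CPM below are TMM-scaled counts relative to the effective library size. RPKM are CPM per kilobase of annotated exon. The median tested gene moved by -0.11 (log2) under PdB with TMM scaling, by -0.01 with RLE, 0.04 with upper-quartile and -0.31 with library totals, so small changes under PdB depend on the scaling. The line's 4 mesenchymal markers were high in all libraries (VIM 1079 to 2909 CPM, CD44 729 to 1054 CPM). They summed to 6916 to 7118 CPM in DMSO, 5346 to 5664 under PdB and 3562 to 3603 at recovery. VIM fell at each step, and MSN overlapped between DMSO and PdB. Of the luminal markers, KRT18 had 313 to 546 CPM, EPCAM 2.17 to 6.51 and CDH1 at most 1.39. GATA3 had 12.4 to 14.0 CPM in DMSO, 44.4 to 46.8 under PdB and 21.4 to 23.6 at recovery. ESR1 had 0 counts in every library, PGR at most 4 counts, and ERBB2 49.1 to 109.6 CPM. Leukocyte markers summed to at most 0.523 CPM and endothelial markers to at most 1.70 CPM. Fibroblast markers summed to 15.1 to 21.0 CPM in DMSO, 6.20 to 11.7 CPM under PdB and 29.7 to 33.7 CPM at recovery. Of their 4 genes, DCN had at most 8 counts and the other genes did not move together. COL1A1 had 7.96 to 9.80 CPM in DMSO, 2.04 to 3.10 under PdB and 23.6 to 24.1 at recovery, and made up most of the sum there. COL1A2 was at 1.22 to 3.47 CPM in DMSO, 2.90 to 5.76 under PdB and 0.962 to 2.25 at recovery. PDGFRB was at 5.58 to 9.44, 1.15 to 2.86 and 4.77 to 7.35 CPM in the same order. In bulk RNA, fewer cells of a type and less RNA per cell cannot be told apart.

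Under PdB the target genes CCN1, CCN2 and AMOTL2 rose, ANKRD1 fell, and TEAD2, TEAD3 and TEAD4 fell. With TMM scaling the coactivator transcripts YAP1 and WWTR1 stayed within a log2 change of 0.12. Of the 10 genes, 4 rose, 5 fell and 1 was not called in edgeR's quasi-likelihood test (adjusted p below 0.05), where 70.1% of all tested genes were called, 32.0% as higher and 38.2% as lower. With library totals the 10 split into 3 higher and 6 lower and all called genes into 5579 and 9098, and with upper-quartile factors into 5 and 4 and into 7510 and 7060. The median log2 change of the 10 was -0.07, beside -0.11 for all tested genes. In 9 of the 10 the PdB and DMSO libraries did not overlap, as in 72.5% of all tested genes. With most genes called, the number of calls among 10 genes is not a result about them.

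**Figure D1:**
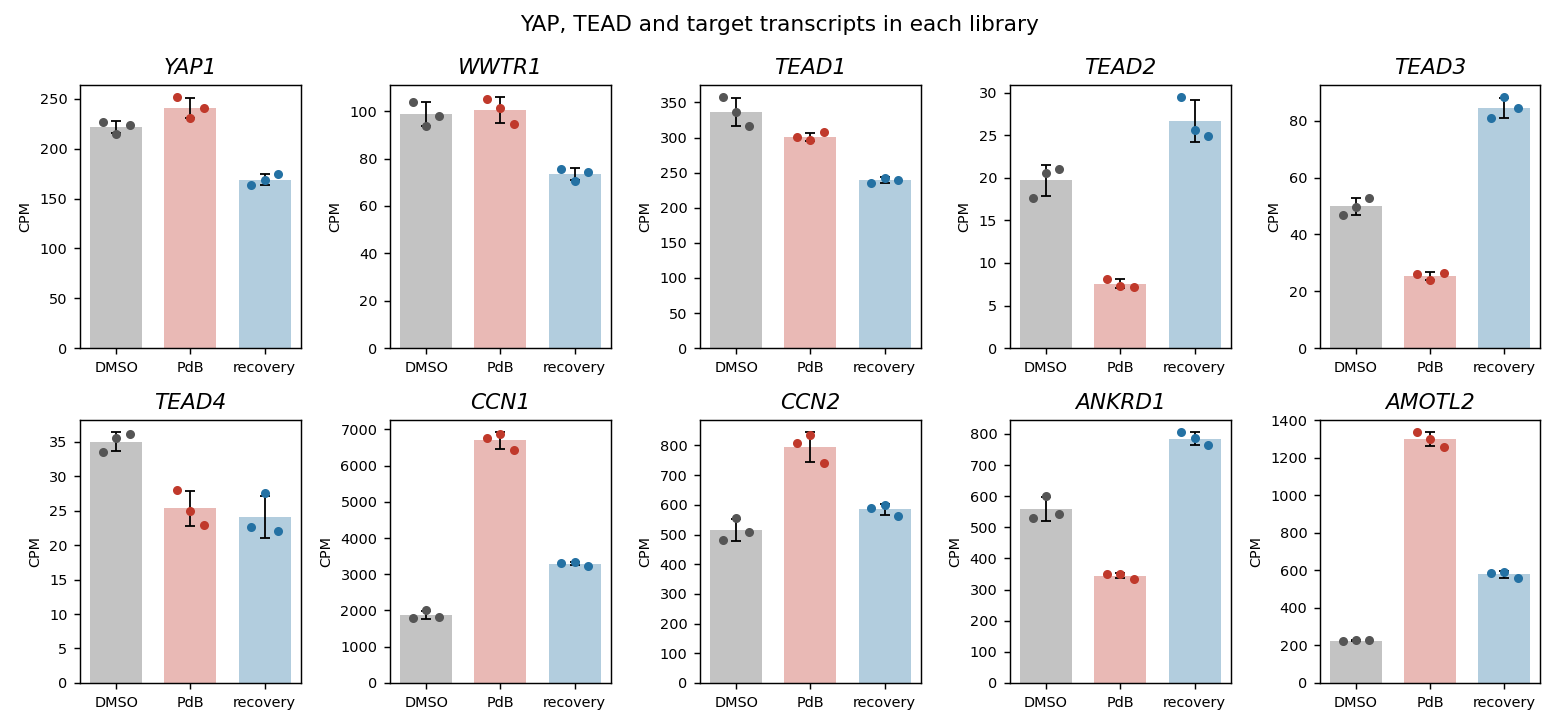
TMM-scaled CPM of the 10 genes (linear axes from 0, scaled per gene) in DMSO, PdB and recovery libraries, with bars for the mean, error bars for the SD and points for the 3 libraries of each group. CCN1, CCN2 and AMOTL2 were highest under PdB, TEAD2, TEAD3 and ANKRD1 were lowest under PdB and highest at recovery, and YAP1, WWTR1 and TEAD1 were lowest at recovery.

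YAP1 (ENSG00000137693.14, chr11:102110461-102233423, plus strand, in the GENCODE 29 annotation of GRCh38) encodes the coactivator YAP. It had 226, 215 and 224 CPM in DMSO, 251, 231 and 241 CPM under PdB, and 164, 168 and 175 CPM at recovery. The PdB libraries lay just above the DMSO libraries and the recovery libraries well below both. The change under PdB was 0.12 ± 0.048 (log2 ± SE, adjusted p = 0.033), and it is a weak call. Without DMSO replicate 2, DMSO replicate 3 or PdB replicate 1 the adjusted p was 0.17, 0.076 and 0.17, and with library totals the sign turned (-0.08). Of the alternatives, 9 kept the call, with log2 changes of 0.12 to 0.27. At recovery YAP1 was lower than in DMSO by -0.39 ± 0.048 (adjusted p = 1.1e-06) and lower than under PdB by -0.51 ± 0.048 (adjusted p = 2.4e-08).

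WWTR1 (ENSG00000018408.15, chr3:149517235-149736714, minus strand) encodes TAZ, the paralog of YAP. Its libraries held 104, 93.9 and 98.1 CPM in DMSO, 105, 101 and 94.8 CPM under PdB, and 75.6, 70.5 and 74.2 CPM at recovery. The first pair of groups overlapped, and all recovery libraries were below them. Under PdB the change was 0.03 ± 0.057 (adjusted p = 0.70). Its sign and call moved with the scaling and filter: with library totals it was -0.17 (adjusted p = 0.010) with upper-quartile factors 0.18 (adjusted p = 0.010), and with only genes averaging 50 or more counts 0.15 (adjusted p = 0.022). At recovery WWTR1 fell against DMSO by 0.43 ± 0.058 on the log2 scale (adjusted p = 3.5e-06). Against PdB it fell by 0.45 ± 0.058 (adjusted p = 1.4e-06).

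The balance of the coactivator transcripts was measured as the ratio of WWTR1 to YAP1 RPKM. It was 0.333 ± 0.0096 (SD, n = 3) in DMSO, 0.312 ± 0.017 under PdB and 0.326 ± 0.018 at recovery. The ranges of the groups overlapped (exact permutation test, two-sided p = 0.30 for PdB against DMSO, 0.60 for recovery against DMSO and 0.50 for recovery against PdB). Adjusted over the 12 ratio comparisons made here, these were 0.36, 0.60 and 0.55, and with 3 libraries against 3 the test cannot go below 0.10. YAP1 was the more abundant transcript in every library per exon length.

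TEAD1 (ENSG00000187079.20, chr11:12674591-12944483, plus strand) encodes the most abundant TEAD of these cells in DMSO. It had 357, 336 and 317 CPM in DMSO, 301, 296 and 307 CPM under PdB, and 235, 243 and 240.1 CPM at recovery. The 3 groups did not overlap and stepped down in that order. The fall under PdB, -0.16 ± 0.048 (adjusted p = 0.0061), was of the size of the scaling shift and was not called with RLE (-0.06, adjusted p = 0.25), with DESeq2 (-0.06, adjusted p = 0.24) or with upper-quartile factors (-0.01, adjusted p = 0.85). The fall from DMSO to recovery was larger, -0.49 ± 0.048 (adjusted p = 4.8e-08). From PdB to recovery it was -0.33 ± 0.048 (adjusted p = 6.1e-06), and -0.07 (adjusted p = 0.25) with library totals.

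TEAD2 (ENSG00000074219.14, chr19:49340595-49362457, minus strand) had the lowest mean RPKM of the family in each group, although its range overlapped that of TEAD4 at recovery. It had 17.6, 20.5 and 21.0 CPM in DMSO, 8.16, 7.32 and 7.19 CPM under PdB, and 29.4, 25.6 and 24.9 CPM at recovery. The groups did not overlap, and recovery was above DMSO. TEAD2 was 2.61-fold lower under PdB (log2 change -1.38 ± 0.10, adjusted p = 6.4e-10), and 17.4% of tested genes had a lower log2 change. It was 3.52-fold higher at recovery than under PdB (1.82 ± 0.10, adjusted p = 1.7e-11) and 1.35-fold higher than in DMSO (0.44 ± 0.096, adjusted p = 0.00067).

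TEAD3 (ENSG00000007866.22, chr6:35473597-35497076, minus strand) had the same order of groups. Its values were 47.0, 49.8 and 52.8 CPM in DMSO, 26.0, 23.9 and 26.4 CPM under PdB, and 81.0, 88.2 and 84.3 CPM at recovery. Every PdB library was below every DMSO library, and every recovery library above both. The fall under PdB was 1.96-fold (-0.97 ± 0.066, adjusted p = 2.0e-10). At recovery TEAD3 exceeded PdB by 3.32-fold (1.73 ± 0.067, adjusted p = 9.4e-14) and DMSO by 1.70-fold (0.76 ± 0.064, adjusted p = 6.7e-09).

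TEAD4 (ENSG00000197905.10, chr12:2959330-3040673, plus strand) did not regain its level. It had 33.5, 35.6 and 36.1 CPM in DMSO, 28.0, 25.0 and 23.0 CPM under PdB, and 22.6, 27.6 and 22.0 CPM at recovery. The DMSO libraries lay above all others, and the PdB and recovery libraries overlapped. TEAD4 was 1.38-fold lower under PdB (-0.47 ± 0.093, adjusted p = 0.00020) and 1.46-fold lower at recovery (-0.54 ± 0.093, adjusted p = 5.4e-05) than in DMSO. Recovery against PdB gave -0.07 ± 0.094 (adjusted p = 0.50).

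The TEAD proteins bind the same letters, so their transcripts were also set side by side per exon length. Summed over the 4 genes, RPKM was 71.2 ± 0.40 (SD, n = 3) in DMSO, 51.3 ± 1.4 under PdB and 70.5 ± 2.4 at recovery. The sum was thus lower under PdB in every library (50.1 to 52.8 against 70.8 to 71.6), while DMSO and recovery (69.1 to 73.3) overlapped. The make-up of that sum was unlike in DMSO and at recovery, in shares that were described and not tested. TEAD1 gave 46.0% ± 2.8 of it in DMSO, 57.1% ± 1.6 under PdB and 33.0% ± 0.80 at recovery. TEAD3 gave 23.0% ± 1.3, 16.3% ± 0.68 and 39.3% ± 0.87 in the same order. TEAD2 gave 9.29% ± 0.84, 4.93% ± 0.23 and 12.7% ± 1.4, and TEAD4 21.7% ± 0.77, 21.7% ± 1.8 and 15.0% ± 1.4.

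At recovery, then, the leading TEAD transcript per annotated exon length was TEAD3 and no longer TEAD1. In CPM, which are not divided by length, TEAD1 stayed above TEAD3 in every recovery library. The lead of TEAD3 thus rests on the annotated lengths, and the lengths of the transcripts present in these cells were not tested. Fold differences of the ratio between groups do not depend on the annotated lengths. The ratio of TEAD3 to TEAD1 RPKM was 0.444, 0.499 and 0.562 in DMSO, 0.292, 0.272 and 0.290 under PdB, and 1.16, 1.23 and 1.19 at recovery. The groups did not overlap. Each comparison gave p = 0.10 in the exact two-sided permutation test, the smallest that 3 libraries against 3 allow (0.13 adjusted over the 12 ratio comparisons).

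**Figure D2:**
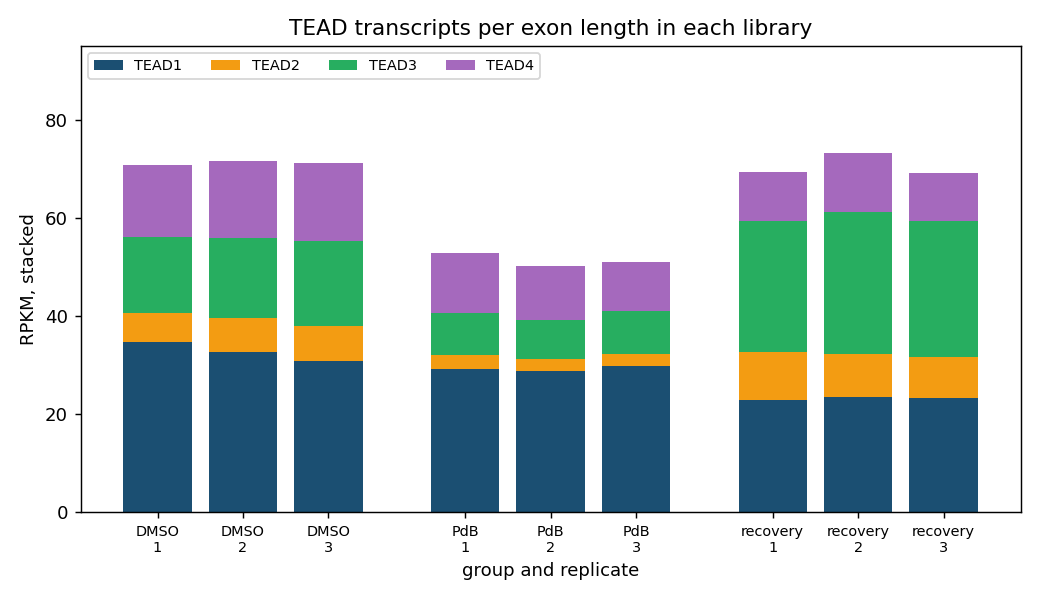
RPKM of TEAD1, TEAD2, TEAD3 and TEAD4, stacked for each of the 9 libraries. The sum was 50.1 to 52.8 under PdB and near 70 otherwise, and the TEAD3 part was larger than the TEAD1 part in the 3 recovery libraries only. Both the sums and the parts depend on the annotated exon lengths.

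CCN1 (CYR61, ENSG00000142871.18, chr1:85580761-85583962, plus strand) encodes a secreted matricellular protein that binds integrins. It had 1801, 1999.6 and 1809 CPM in DMSO, 6775, 6873 and 6441 CPM under PdB, and 3309.6, 3342 and 3237 CPM at recovery. The groups were far apart, with recovery between the other two. CCN1 rose 3.58-fold under PdB (1.84 ± 0.045, adjusted p = 1.9e-16), a change above that of 90.2% of tested genes. At recovery it was 2.03-fold below PdB (-1.02 ± 0.044, adjusted p = 3.7e-13) and still 1.76-fold above DMSO (0.82 ± 0.044, adjusted p = 1.4e-11). Per exon length it was the most abundant of the 10 genes in every group, ranked 24 in DMSO, 14 under PdB and 15 at recovery among 20427 tested genes with an annotated length.

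CCN2 (CTGF, ENSG00000118523.6, chr6:131948176-131951373, minus strand) encodes connective tissue growth factor, the relative of CCN1 in the same family. It had 482, 556 and 510.0 CPM in DMSO, 809.9, 836 and 740.1 CPM under PdB, and 591, 600.2 and 564 CPM at recovery. The order of groups was that of CCN1, and the highest DMSO library lay just under the lowest recovery library. CCN2 rose 1.54-fold under PdB (0.62 ± 0.056, adjusted p = 9.2e-09). It fell 1.36-fold from PdB to recovery (-0.44 ± 0.055, adjusted p = 1.1e-06). Against DMSO it was 1.13-fold higher at recovery (0.18 ± 0.055, adjusted p = 0.0086), a call that was lost without DMSO replicate 1 (0.13, adjusted p = 0.062).

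ANKRD1 (ENSG00000148677.7, chr10:90912096-90921276, minus strand) encodes a nuclear ankyrin-repeat protein known from stretched muscle and is a standard readout of YAP activity. Its values were 528, 602 and 543 CPM in DMSO, 349, 349 and 335 CPM under PdB, and 805, 786 and 763 CPM at recovery. The groups did not overlap, and their order was the reverse of that of CCN1 for PdB against the rest. ANKRD1 fell 1.62-fold under PdB (-0.70 ± 0.050, adjusted p = 3.8e-10). At recovery it was 2.28-fold above PdB (1.19 ± 0.050, adjusted p = 3.0e-13) and 1.41-fold above DMSO (0.49 ± 0.049, adjusted p = 7.4e-08). Of the fibroblast markers given above, COL1A1 had the same order of groups as TEAD2, TEAD3 and ANKRD1, and COL1A2, PDGFRB and DCN did not. Their part in these results was not tested.

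AMOTL2 (ENSG00000114019.15, chr3:134355874-134375479, minus strand) encodes an angiomotin, a junctional protein that binds YAP and holds it in the cytoplasm, and is itself a YAP target. It had 223, 226 and 227 CPM in DMSO, 1336, 1302 and 1261 CPM under PdB, and 586, 592 and 558 CPM at recovery. No library of one group came near another group. AMOTL2 rose 5.77-fold under PdB (2.53 ± 0.044, adjusted p = 1.4e-17), a change above that of 94.4% of tested genes. At recovery it was 2.25-fold below PdB (-1.17 ± 0.042, adjusted p = 4.0e-14) and 2.57-fold above DMSO (1.36 ± 0.042, adjusted p = 2.6e-14).

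**Figure D3:**
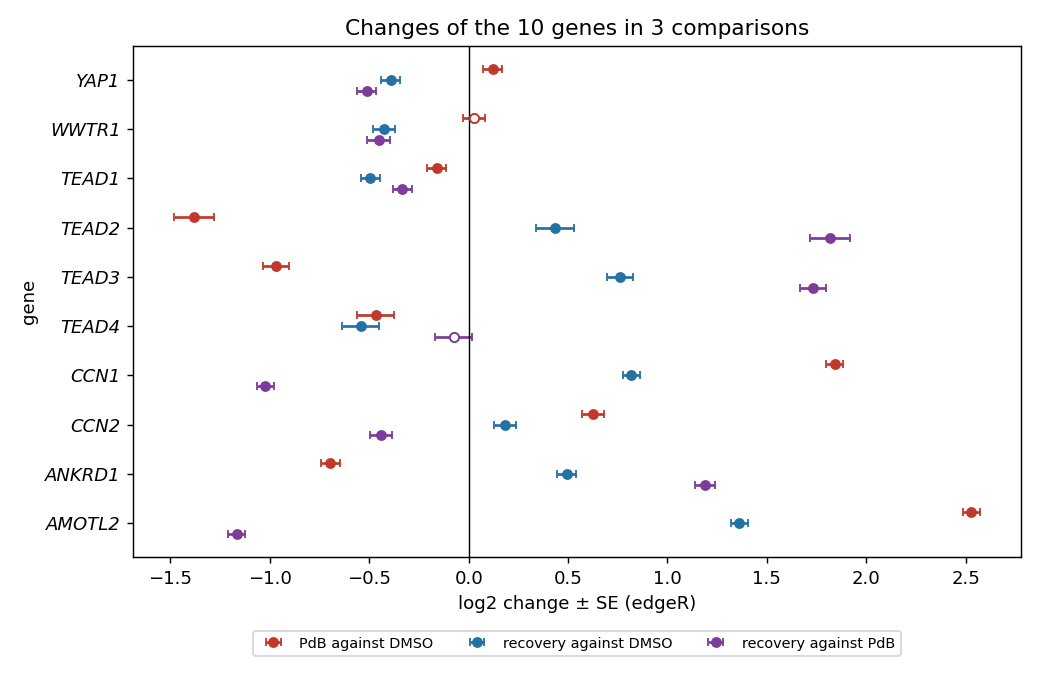
Log2 change ± SE from edgeR for the 10 genes in the 3 comparisons (filled points, adjusted p below 0.05, and open points, not called). AMOTL2 and CCN1 lay farthest to the right for PdB against DMSO (2.53 and 1.84), and TEAD2 and TEAD3 farthest to the right for recovery against PdB (1.82 and 1.73).

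Ratios within a library, which do not depend on scaling, separated the targets further. The AMOTL2 to ANKRD1 ratio of RPKM was 0.139, 0.124 and 0.138 in DMSO, 1.26, 1.23 and 1.24 under PdB, and 0.241, 0.249 and 0.242 at recovery. Its geometric mean was 9.33-fold higher under PdB than in DMSO and 1.82-fold higher at recovery. The CCN1 to CCN2 ratio was 3.46 ± 0.094 (SD, n = 3) in DMSO, 8.03 ± 0.24 under PdB and 5.37 ± 0.089 at recovery. Groups did not overlap for either ratio, and each of the 6 comparisons reached p = 0.10 (exact two-sided permutation test, 0.13 adjusted over 12), again the smallest possible.

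At recovery against DMSO all 10 genes were called, 6 as higher and 4 as lower, where 61.2% of all tested genes were called, 30.7% as higher and 30.5% as lower. The 6 that were higher were the 4 targets, TEAD2 and TEAD3, and the 4 that were lower were YAP1, WWTR1, TEAD1 and TEAD4. Their median log2 change was 0.31, beside 0.03 for all tested genes, and the groups did not overlap in any of the 10, as in 70.4% of all genes. Recovery against PdB gave 3 genes higher (TEAD2, TEAD3 and ANKRD1), 6 lower and 1 not called, where 66.1% of all genes were called, 34.6% as higher and 31.5% as lower. The median there was -0.39, beside 0.06 for all genes, and 9 of the 10 did not overlap (70.5% of all genes). With library totals in place of TMM, the split of all called genes in that comparison moved from 7204 higher and 6563 lower to 8862 higher and 4876 lower. The 3 comparisons share libraries pairwise and are not independent of each other.

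The order of the 10 levels per exon length also changed. In DMSO it was CCN1 (762 ± 45.8 RPKM, SD, n = 3), ANKRD1 (282 ± 19.6), CCN2 (221 ± 15.9), AMOTL2 (37.6 ± 0.38), YAP1 (35.2 ± 0.95), TEAD1 (32.8 ± 1.9), TEAD3 (16.4 ± 0.95), TEAD4 (15.4 ± 0.59), WWTR1 (11.7 ± 0.60) and TEAD2 (6.61 ± 0.62). Of these neighbours, YAP1 and TEAD1 overlapped, as did TEAD3 and TEAD4. Under PdB, CCN2 (340.0 ± 21.2 RPKM) and AMOTL2 (217 ± 6.3 RPKM) stood above ANKRD1 (174 ± 4.2 RPKM), and WWTR1 and TEAD4 overlapped (11.9 ± 0.63 and 11.1 ± 1.1 RPKM). At recovery ANKRD1 (396 ± 10.6 RPKM) was again second to CCN1 (1343 ± 21.9 RPKM), and TEAD3 (27.7 ± 1.2 RPKM) overlapped YAP1 (26.8 ± 0.92 RPKM).

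Because PdB acts on splicing, each gene was set beside coding genes with the same number of introns. Introns were counted in the annotated transcript with the most exon bases. Other transcripts of a gene can have more or fewer introns, and its place among genes with another number was not tested. AMOTL2, with 9 introns, rose more than 98.8% of 669 such genes, whose median log2 change was -0.28. CCN1 and CCN2 have 4 introns each in genes of 3202 and 3198 bases, and rose more than 90.9% and 69.2% of 1108 genes with a median of 0.08. ANKRD1, with 8 introns, was above 33.2% of 692 genes, and YAP1, with the same intron number, above 62.7% of them. TEAD2, with 10 introns, was above 17.8% of 572 genes, TEAD3, with 12, above 31.9% of 432 genes, and TEAD4, also with 12, above 48.4%. WWTR1 and TEAD1, with 7 introns in spans of 219480 and 269893 bases, lay near the middle of their 782 genes (54.5% and 47.3% below them). Genes with the same intron number thus had unlike changes: 1.84 for CCN1 beside 0.62 for CCN2, and -0.70 for ANKRD1 beside 0.12 for YAP1 (log2).

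**Figure D4:**
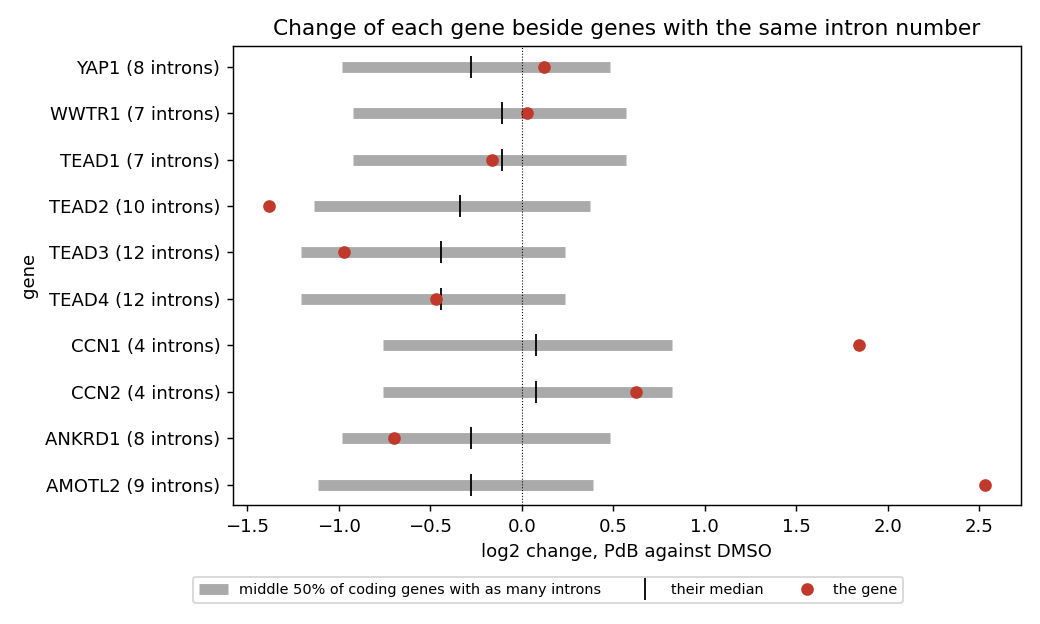
Log2 change under PdB of each of the 10 genes (red points) beside the quartile range (grey bar) and median (black line) of tested coding genes with the same intron number. AMOTL2, CCN1 and TEAD2 lay outside the grey bar, and the other genes lay inside it. Introns are those of the annotated transcript with the most exon bases.

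Some counts can be shared with an overlapping annotated gene. The sources used here give neither the use of strand nor the treatment of multi-mapping reads. The use of strand bears only on neighbours on the opposite strand. AMOTL2 shares 187 exon bases with RPL39P5, a processed pseudogene on the same strand, which took 8.82% to 9.21% of the counts of both in DMSO, 8.91% to 9.46% under PdB and 9.04% to 9.33% at recovery. CCN2 shares 195 exon bases with the antisense gene AL133346.1, which had 398 to 660 counts per library. The antisense genes WWTR1-AS1 (58 to 154 counts) and AP000942.2 at YAP1 (39 to 102 counts), and CD37 at TEAD2 (0 to 39 counts), were lower still.

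The Hippo kinases and upstream regulators were given as a list of 34 genes, of which 32 were tested (MAP4K1 and FRMD1 were not). Under PdB 9 rose, 19 fell and 4 were not called (70.1% of all tested genes were called, 32.0% as higher and 38.2% as lower), with a median log2 change of -0.69 beside -0.11 for all tested genes. At recovery 11 were higher and 11 lower than in DMSO and 10 were not called (61.2% of all genes called), and the median was -0.04 beside 0.03. From PdB to recovery 16 rose, 12 fell and 4 were not called (66.1% of all genes called), with a median of 0.03 beside 0.06. The largest rise under PdB was that of DCHS1, a giant protocadherin, from 1.63 ± 0.28 to 63.0 ± 13.5 CPM (5.27 ± 0.16, adjusted p = 1.7e-15), with 6.03 ± 0.21 CPM at recovery. That was also the largest rise of the list at recovery against DMSO (1.88) and the largest fall from PdB to recovery (-3.38). TNIK, a kinase of the germinal centre kinase family, fell most under PdB, from 14.0 ± 2.4 to 2.82 ± 0.67 CPM (-2.31 ± 0.18, adjusted p = 1.2e-09), and rose most from there to recovery (2.28, 13.7 ± 2.7 CPM). WWC3, a KIBRA relative that promotes LATS activity, had the largest fall from DMSO to recovery, from 171 ± 1.8 to 72.2 ± 6.5 CPM (-1.25 ± 0.068, adjusted p = 1.8e-11).

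The core of the kinase cascade is described by role, chosen after its values were seen. Counts of the genes for the LATS kinases, which phosphorylate YAP and TAZ, rose under PdB. Whether the added transcripts were fully spliced was not tested, here or for the other genes. LATS2 had 65.3, 63.7 and 69.0 CPM in DMSO, 464, 439.9 and 443 CPM under PdB, and 193, 195 and 185 CPM at recovery. It was 6.80-fold higher under PdB (2.77 ± 0.050, adjusted p = 1.9e-17) and 2.89-fold higher at recovery (1.53 ± 0.049, adjusted p = 3.3e-14). LATS1 rose from 35.9 ± 2.1 to 141 ± 2.9 CPM (1.97 ± 0.056, adjusted p = 1.1e-15) and was at 72.6 ± 0.45 CPM at recovery. SAV1, the scaffold of the MST kinases, rose from 76.0 ± 3.6 to 339 ± 33.0 CPM (2.16 ± 0.069, adjusted p = 5.0e-15), and NF2, which encodes the upstream membrane protein merlin, from 21.7 ± 1.5 to 186 ± 8.2 CPM (3.10 ± 0.068, adjusted p = 6.9e-17). At recovery NF2 was at 29.0 ± 1.9 CPM, still above DMSO (0.42, adjusted p = 2.1e-05).

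The MST kinases and the MOB1 adaptors went the other way under PdB. STK4, which encodes MST1, fell from 125 ± 1.6 to 48.8 ± 3.4 CPM (-1.35 ± 0.057, adjusted p = 1.9e-13) and was at 129.7 ± 3.9 CPM at recovery, where it was not called against DMSO (0.06, adjusted p = 0.39). STK3, which encodes MST2, fell from 31.3 ± 1.3 to 19.3 ± 2.1 CPM (-0.70 ± 0.084, adjusted p = 5.3e-07) and had 27.4 ± 0.98 CPM at recovery (adjusted p = 0.051 against DMSO). MOB1B fell from 55.9 ± 1.4 to 29.7 ± 1.7 CPM (-0.91) and reached 64.7 ± 1.9 CPM at recovery, while MOB1A fell from 138 ± 1.5 to 94.0 ± 1.6 CPM (-0.55) and was lower still at recovery, with 78.7 ± 3.7 CPM. The step of MOB1A from PdB to recovery (-0.26) turned to 0.01 with library totals.

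**Figure D5:**
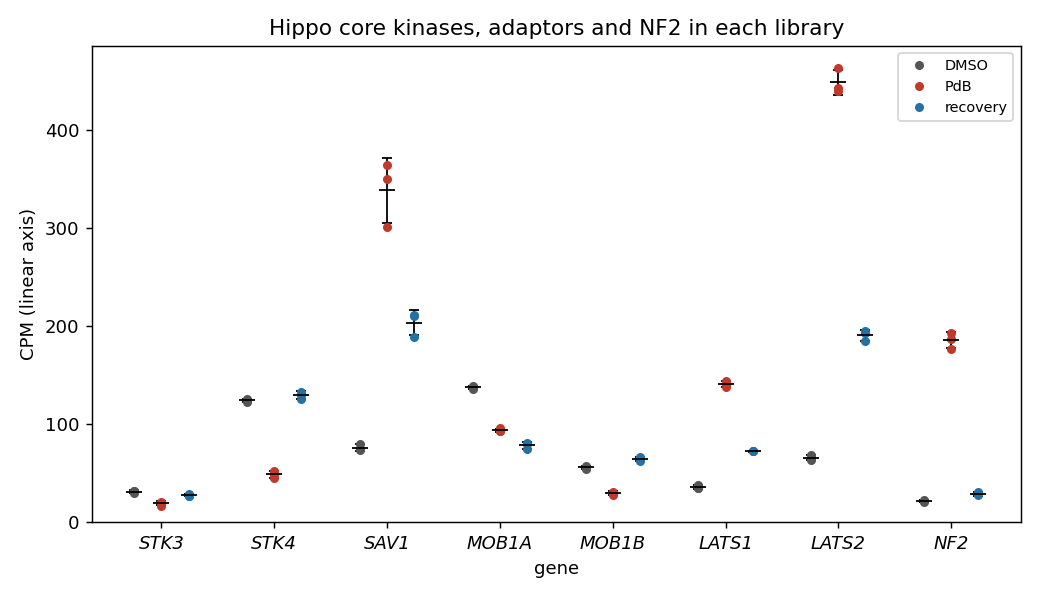
CPM of 8 Hippo core genes in each library (points), with the mean and SD of each group (black). SAV1, LATS1, LATS2 and NF2 were highest under PdB, whereas STK3, STK4 and MOB1B were lowest there and MOB1A was lowest at recovery.

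Of 18 further YAP and TAZ targets, all tested, 8 rose, 9 fell and 1 was not called under PdB (70.1% of all tested genes called), with a median log2 change of -0.10 beside -0.11 for all tested genes. At recovery 4 were higher and 10 lower than in DMSO, 4 were not called (61.2% of all genes called), and the median was -0.47, beside 0.03 for all tested genes. From PdB to recovery 5 rose, 12 fell and 1 was not called (66.1% of all genes called), with a median of -0.61, beside 0.06 for all genes. LATS2, which is in this list too, had the largest rise against DMSO in both groups. DOCK5, an exchange factor for Rac, fell most under PdB, from 159 ± 12.1 to 44.8 ± 7.8 CPM (-1.83 ± 0.092, adjusted p = 2.7e-12). NT5E, which encodes the ectonucleotidase CD73, had 625 ± 15.5 CPM in DMSO and 568 ± 30.6 under PdB, and then 127 ± 4.2 CPM at recovery. Its change was -2.30 ± 0.050 against DMSO (adjusted p = 6.0e-16) and -2.17 ± 0.050 against PdB (adjusted p = 2.3e-16), the largest fall of the list in each. ASAP1, an Arf GTPase-activating protein, rose most from PdB to recovery, from 81.5 ± 0.52 to 189.8 ± 6.0 CPM (1.22 ± 0.048, adjusted p = 1.3e-13). Of the 13 of these genes with a RefSeq window, 6 held GGAATG (LATS2, AXL, FOXF2, PTPN14, NUAK2 and TGFB2), AXL in only 1 of its windows. Of all RefSeq windows of that length 14.0% held it, a share per window and not per gene. The list was chosen with earlier results of these data known, and enrichment was not tested.

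Of 19 cofactors, repressors and relatives, 14 were tested (AMOT, VGLL1, VGLL2, CCN4 and CCN6 were not). Under PdB 6 rose, 6 fell and 2 were not called (70.1% of all tested genes called), with a median log2 change of 0.18 beside -0.11 for all genes, which was -0.01 beside -0.31 with library totals. At recovery 7 were higher and 5 lower than in DMSO (61.2% of all genes called), with a median of 0.12 beside 0.03. From PdB to recovery 6 rose and 5 fell (66.1% of all genes called), with a median of 0.10 beside 0.06. With library totals that split was 7 higher and 2 lower, with a median of 0.36 beside 0.33 for all genes. VGLL3, a vestigial-like protein that binds TEADs at the surface used by YAP, had 7.62, 6.04 and 8.56 CPM in DMSO, 32.5, 32.1 and 35.4 CPM under PdB, and 39.2, 39.7 and 44.3 CPM at recovery. It was the largest rise of this list under PdB (2.17 ± 0.11, adjusted p = 1.6e-12) and at recovery (2.47 ± 0.11, adjusted p = 8.8e-13), and it was slightly higher at recovery than under PdB (0.30 ± 0.097, adjusted p = 0.011). VGLL4, a relative that competes with YAP for TEADs, was at 22.6 ± 2.4 CPM in DMSO, 62.8 ± 2.9 under PdB and 34.1 ± 0.42 at recovery, and its step from PdB to recovery was the largest fall (-0.88 ± 0.075, adjusted p = 5.4e-09). BTRC, the ubiquitin ligase subunit that recognises phosphorylated YAP and TAZ, fell from 34.8 ± 1.6 to 7.47 ± 0.74 CPM (-2.22 ± 0.088, adjusted p = 8.7e-14) and regained 26.0 ± 0.39 CPM (1.80 from PdB). PTPN14, a phosphatase that binds YAP, was not called under PdB (-0.06, adjusted p = 0.41) and had the largest fall at recovery against DMSO, from 329 ± 16.7 to 217 ± 4.7 CPM (-0.60 ± 0.058, adjusted p = 4.4e-08).

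Across the 9 libraries, which fall into 3 groups and share them in every pair of genes, the pairs of the 10 genes with the closest patterns of log2 CPM were CCN1 with AMOTL2 (Pearson r 0.993), TEAD3 with ANKRD1 (0.989) and TEAD2 with ANKRD1 (0.976). CCN1 with CCN2 gave 0.966, and YAP1 with WWTR1 0.952. The most opposed pairs were YAP1 with ANKRD1 (-0.914) and YAP1 with TEAD3 (-0.908). Outside the lists, the 3 genes most like YAP1 were CFDP1 (0.993), INSR (0.993) and ZNF318 (0.992), those most like CCN1 were RNF113A, GADD45B and PPIG (0.999 each), and those most like CCN2 included ZNF566 and BCCIP (0.993 each). GADD45B, for one, went from 45.1 ± 2.9 CPM in DMSO to 419 ± 41.9 under PdB and 116 ± 1.5 at recovery. These r are descriptions of 9 libraries and carry no p.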

How the data were processed

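RNA from 9 MDA-MB-231 libraries (polyadenylated RNA, Universal Plus mRNA-Seq with NuQuant kit, per the labels' protocols) was analysed from the table that the authors deposited, which holds whole-number read counts per Ensembl gene and no normalized values. The tools named for hg38 in the submitters' processing notes are STAR 2.7.9a, featureCounts 2.0.3, fastp 0.23.2, DESeq2 1.30.0 and Picard. Not given in the sources used here were their settings for strand, duplicates and multi-mapping reads, and the annotation release.

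Symbols were found for 60507 of 60708 gene IDs, and 58440 matched GENCODE 29 (GRCh38), which gave coordinates, introns and exon lengths. Genes were filtered with filterByExpr, scaled by TMM (factors 0.883 to 1.09) and tested two-sided with edgeR 4.0.16 (quasi-likelihood test, R 4.3.3) over all 9 libraries, with Benjamini-Hochberg adjustment over 20812 genes at 0.05. The fit, with a common biological coefficient of variation of 0.111, was tested on simulated data. CPM are TMM-scaled, and correlations used log2 CPM with a prior count of 2. Ratios were compared with exact permutation tests. Libraries of a group differed by more than counting noise (chi-square per degree of freedom 4.87 to 24.1), so none was taken for a second deposit of another.

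Named genes were the 10 members, the largest called rise and fall of each of 3 other lists in each comparison, and the 3 genes most like YAP1, CCN1 and CCN2 by Pearson r (those averaging 50 or more counts), of which 1 is not reported here. The members and lists were chosen with earlier results of these data known. The alternatives were RLE and upper-quartile factors, library totals, no filter, a filter at 50 counts on average, DESeq2 1.42.0, the 6 libraries of a comparison alone, a replicate block and leaving out each library. Figures were drawn with matplotlib 3.10.9 in Python 3.11.15.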

Additional observations from a re-analysis of the deposited data

How the results depend on the processing

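None of the 210 alternative counts of called genes, over all genes or over a list, moved by more than 1.5 times. That limit is wide, because most genes were already called and many of these counts could not rise that far. It also takes no account of direction, and the splits into higher and lower moved with the scaling. The 10 genes gave 8 to 9 calls under PdB, 10 at recovery against DMSO and 8 to 9 at recovery against PdB. Without 1 library they gave 8 to 9, 9 to 10 and 9. All tested genes gave 14002 to 14762, 11715 to 12106 and 12931 to 14034 calls without 1 library. Of the alternatives for single genes, 956 kept direction and call, 8 turned direction, 11 lost the call and 5 gained it.

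The turned directions were small values. With library totals, PdB against DMSO gave -0.17 for WWTR1 and -0.076 for YAP1, and recovery against PdB gave 0.19 for TEAD4 (adjusted p = 0.068, edgeR) and 0.011 for MOB1A (adjusted p = 0.86). WWTR1 under PdB was -0.0074 without a filter, -0.017 without DMSO replicate 2 and -0.012 without PdB replicate 1 (-0.017 to 0.065 over the libraries left out), and TEAD4 at recovery against PdB was 0.0076 without PdB replicate 1. TEAD1 under PdB also lost its call with a filter at 50 counts on average (-0.04) and with the 6 libraries alone (-0.08), and YAP1 with no filter (0.09). The cause was not tested.

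Same-numbered libraries deviated together weakly (r -0.0032 to 0.048, beside -0.061 to 0.026 for libraries with other numbers). Of 18 library comparisons, 13 were closest to their own number, so same-numbered libraries were slightly more alike. The labels do not say that a number marks a shared day or batch, and the main fit had no replicate block. With the replicate block 14628, 12922 and 13871 genes and 9, 10 and 9 of the 10 genes were called, and STK3 at recovery against DMSO gained a call (adjusted p = 0.033), as it did without a filter (0.045) and with the 6 libraries alone (0.016).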
